A study of Mus musculus with 8 samples.

Results

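The genes that make cholesterol and fatty acids were followed through the activation of CD8+ T cells in culture, as 30 named protein-coding genes of the 24976 gene symbols in the count table. They were chosen by name for their place in the pathway, with earlier results of these data known. Of these, 21 form the sterol arm (enzymes that lead to cholesterol, its regulators Srebf2 and Insig1 and the sterol carrier Stard4). The other 9 form the fatty acid arm (Srebf1 and enzymes that make, lengthen and desaturate fatty acids). All 30 had counts, and all 30 were among the 12742 genes with enough counts to be tested. The cells were naive CD8+ T cells from mice with Cre recombinase under Cd8 control and both alleles of Nr4a1 and of Nr4a2 floxed, here called dKO as in the labels, and from their wild-type littermates (WT). Nr4a1 and Nr4a2 encode nuclear receptors that signals from the T cell receptor induce. Cells of both genotypes were activated with anti-CD3, anti-CD28 and IL-2 and collected at 48 h or at 24 h, so the 4 groups of 2 libraries each are dKO at 48 h, WT at 48 h, dKO at 24 h and WT at 24 h. No group of resting cells was analysed here, and the sources used here do not give the age and strain of the mice, the Cd8 sequence that drives Cre or any pooling of animals.

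Cholesterol is built from acetyl-CoA through mevalonate, the isoprenoid farnesyl diphosphate, squalene and lanosterol. The transcription factor SREBP2, the product of Srebf2, drives most genes of this arm, while SREBP1, the product of Srebf1, favours fatty acid synthesis and desaturation. INSIG proteins hold both factors in the endoplasmic reticulum while sterols are plentiful, and a fall in sterols releases them. T cells that have been activated grow and divide, and they are known to raise SREBP activity to supply new membrane.

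Total counts were between 5000952 and 21686236 per library, so that a count of 0 allows up to 3 counts, or 0.138 to 0.6 counts per 1e6 counts (CPM), for counting error only. CPM of single genes below was scaled by the TMM factors of edgeR. The targeted genes do not check the genotype labels: Nr4a2 had 75.3 and 77.2 CPM in dKO at 48 h against 24.6 and 33.1 CPM in WT, and 142 and 136 CPM in dKO at 24 h against 59.7 and 49.1 CPM in WT. Nr4a1 had 634 and 668 CPM in dKO at 48 h against 879 and 777 CPM in WT, and 532 and 505 CPM in dKO at 24 h against 525 and 275 CPM in WT. Counts per gene can include exons that a floxed allele keeps, and every direction below is one for the libraries labelled dKO. Xist, which marks female cells, was at 0.655 to 1.67 CPM in the dKO libraries and at 386.5 to 816.1 CPM in the WT libraries, so genotype and sex cannot be told apart here. The summed CD8 T cell markers (Cd8a, Cd8b1, Cd3e, Cd3d and Cd3g, all 5 detected) were at 1226 to 1956 CPM. Cd4 had 0 to 2 counts per library, but the 2 markers of CD4 or regulatory T cells together had 9 to 57. The 3 B cell markers in the table summed to 17 to 86 counts per library. The 5 myeloid markers in the table summed to 33 to 214 counts, with Lyz2 at 0 in all 8 libraries. The sum of 6 adipocyte and hepatocyte markers was 0 to 11 counts. Small numbers of other cells were thus not excluded. WT 48 h replicate 2 stood apart: its correlation with its replicate across genes was 0.969, against 0.989 to 0.993 in the other 3 groups, and ribosomal protein genes took 6.365% of its counts, against 10.0% to 12.1% in the other 7 libraries.

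To show what the regulatory sequence of the arms looks like, the 250 bases before the annotated start site are printed for Lss, Msmo1 and Ebp, sterol genes on which results below turn, and, for contrast, for Fads2 of the fatty acid arm. Hmgcs1, which no comparison below called, is printed with them. Among the 17 sterol genes with a sequence here, only Hmgcs1 held an exact match to the SREBP string searched in these sequences. They come from RefSeq (GRCm38.p6), are written 5′ to 3′ on the strand of the gene, and carry in capitals each match on either strand to the SREBP element TCACNCCAC and to the NF-Y box CCAAT. On the opposite strand the NF-Y box reads ATTGG. NF-Y is a factor that binds beside SREBP in many sterol gene promoters.
Hmgcs1 (chr13:119690101-119690350, plus strand): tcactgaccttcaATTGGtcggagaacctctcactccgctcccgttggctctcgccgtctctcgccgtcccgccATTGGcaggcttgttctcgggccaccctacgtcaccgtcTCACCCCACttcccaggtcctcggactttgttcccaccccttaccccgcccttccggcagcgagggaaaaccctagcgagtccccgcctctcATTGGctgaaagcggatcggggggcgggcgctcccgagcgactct
Lss (chr10:76531355-76531604, plus strand): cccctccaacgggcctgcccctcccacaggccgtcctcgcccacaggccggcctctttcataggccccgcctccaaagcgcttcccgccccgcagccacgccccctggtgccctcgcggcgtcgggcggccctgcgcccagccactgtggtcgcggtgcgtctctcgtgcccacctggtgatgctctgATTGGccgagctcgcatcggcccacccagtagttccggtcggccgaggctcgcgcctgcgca
Msmo1 (chr8:64733579-64733828, minus strand): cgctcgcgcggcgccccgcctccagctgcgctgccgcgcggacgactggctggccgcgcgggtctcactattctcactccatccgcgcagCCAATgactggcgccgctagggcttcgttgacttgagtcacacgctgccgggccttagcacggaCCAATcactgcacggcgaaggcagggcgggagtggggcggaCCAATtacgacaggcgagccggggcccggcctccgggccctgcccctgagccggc
Ebp (chrX:8193513-8193762, minus strand): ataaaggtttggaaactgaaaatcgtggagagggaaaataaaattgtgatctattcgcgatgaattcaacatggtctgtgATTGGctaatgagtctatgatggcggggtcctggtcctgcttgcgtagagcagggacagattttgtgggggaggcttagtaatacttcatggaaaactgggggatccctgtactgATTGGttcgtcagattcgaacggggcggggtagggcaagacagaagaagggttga
Fads2 (chr19:10101504-10101753, minus strand): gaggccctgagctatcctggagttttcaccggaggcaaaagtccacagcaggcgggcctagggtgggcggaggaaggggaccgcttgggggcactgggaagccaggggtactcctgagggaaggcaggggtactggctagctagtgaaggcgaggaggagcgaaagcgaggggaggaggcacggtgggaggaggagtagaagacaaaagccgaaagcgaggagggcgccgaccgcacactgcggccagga
In each of the 4 sterol genes a CCAAT box begins 45 to 62 bases before the start site, at 45 in Hmgcs1, 62 in Lss and 55 in both Msmo1 and Ebp. The Fads2 sequence holds no match to either motif.

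Motifs were then counted on both strands in windows from 250 bases before to 50 after each start, each motif apart from the others, so that a base may belong to more than one. The RefSeq table held a window for 17 of the 21 sterol genes and for 6 of the 9 fatty acid genes. CCAAT was present in 16 of the 17 sterol genes (94.1%), Acat2 being the one without it, in 3 of the 6 fatty acid genes (50%; Srebf1, Acly and Fasn) and in 41.1% of all 27025 genes with a window. TCACNCCAC was found in 1 of the 17 sterol genes, Hmgcs1 (5.88%), in 0 of the 6 fatty acid genes and in 1.44% of all genes. Only this exact string was searched, so SREBP elements spelled otherwise were not counted. The E-box CACGTG was in 23.5% of the sterol genes, 0% of the fatty acid genes and 8.09% of all genes, and the GC box GGGCGG was in 94.1%, 50% and 38.2%. These are matches of letters in a window and were not tested.

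The first question was how the sterol arm differed between 48 h and 24 h of activation, taken apart for each genotype. The sum of its 21 members was 1312 and 1295 CPM in dKO at 48 h against 911 and 870 CPM in dKO at 24 h, and 1165 and 1096 CPM in WT at 48 h against 893 and 972 CPM in WT at 24 h. In both genotypes both 48 h libraries lay above both 24 h libraries. In dKO 8 of the 21 members rose at an adjusted p below 0.05 in the quasi-likelihood test of edgeR, here termed called, and 0 fell. Among all tested genes 1.76% rose and 1.88% fell in that comparison. In WT 2 of the 21 rose (Acat2 and Lss) and 0 fell, where 7.87% of all tested genes rose and 3.5% fell. With library size in place of TMM scaling, 0 sterol members were higher in WT and 1, Ebp, was lower. At an unadjusted p below 0.05, 14 members were higher in dKO and 8 in WT, where 11.1% and 14% of all tested genes were, and 0 were lower in either. The median log2 difference of the arm was 0.51 in dKO and 0.21 in WT, against -0.01 and 0.00 over all tested genes. With library size scaling the medians were 0.34 in dKO and -0.15 in WT, so the sign in WT flipped, and the medians over all genes moved to -0.18 and -0.36. Under that scaling 8 of the 21 members changed sign in WT and 1 in dKO. The WT median was 0.13 without WT 24 h replicate 1. In bulk RNA, fewer cells of a type and less RNA per cell cannot be told apart.

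**Figure D1:**
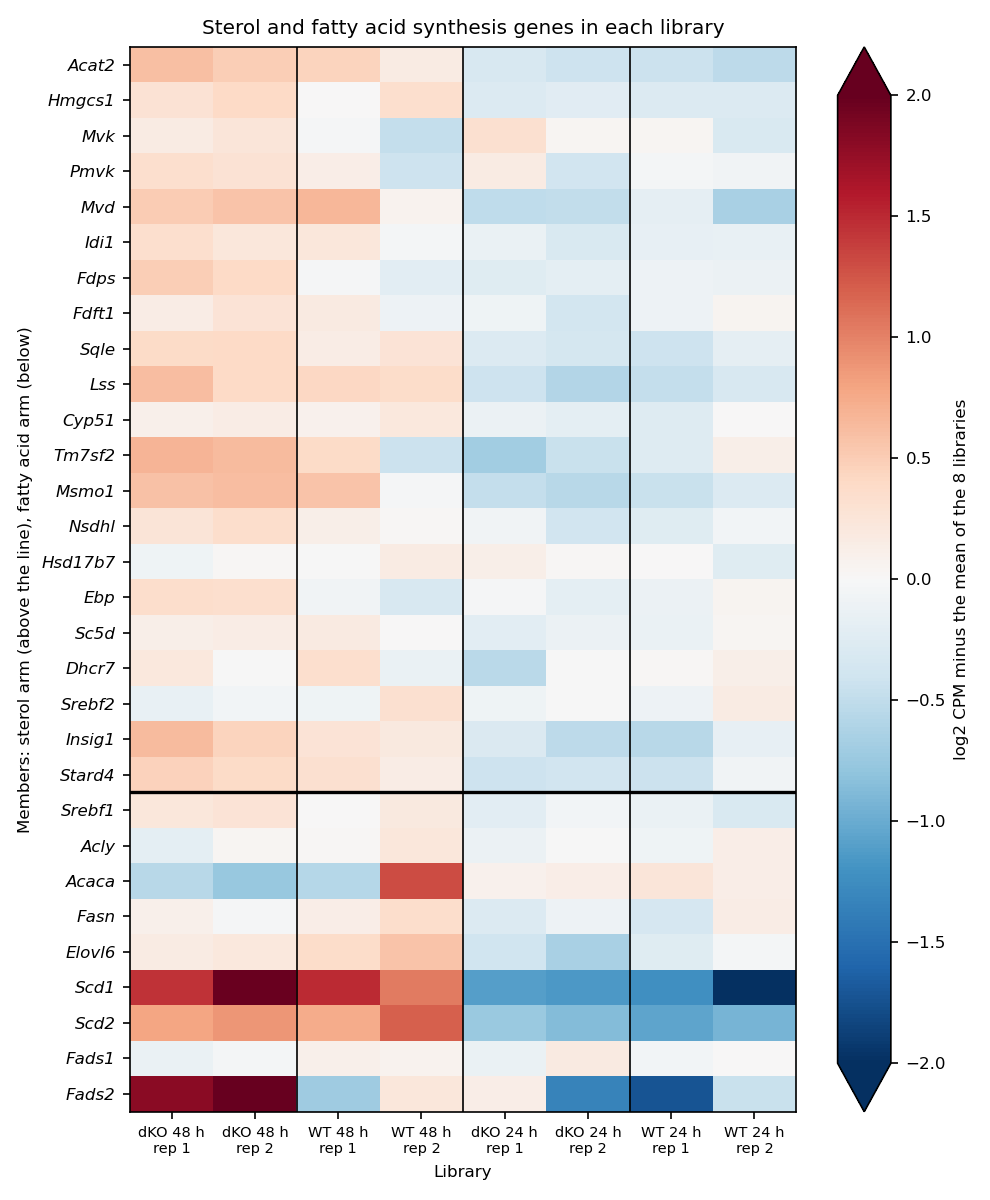
Level of the 30 genes (rows, sterol arm above the line and fatty acid arm below) in the 8 libraries (columns), as log2 CPM minus the mean of the gene over the 8 libraries (colour scale, ends of the scale take larger values). Most sterol genes are above their mean in the dKO 48 h libraries and below it in the 24 h libraries, while Acaca is far above its mean in WT 48 h replicate 2, with 50.6 CPM against 12.2 to 24.3 CPM elsewhere.

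The libraries of the sterol genes were also compared without a test. In dKO, both 48 h libraries lay above both 24 h libraries for 17 of the 21 members and below them for 1, where 32.9% of all tested genes were higher and 33.5% lower without overlap. In WT the 48 h libraries lay above for 11 of 21 and below for 0, where 22.7% of all genes were higher and 24.3% lower without overlap. The change with time was larger in dKO than in WT for 19 of the 21 members, and 14 members had a positive change in both genotypes. The share of all tested genes with a larger change in dKO was not counted. Their median difference of the changes was -0.04. Across the 21 members the changes in dKO and in WT correlated at r = 0.606, a description over genes that share the same libraries. Whether the time change differed between the genotypes was tested separately and is given below.

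Of the 8 members that lead from acetyl-CoA to squalene, 3 were called in dKO (Acat2, Mvd and Fdps) and 1 in WT (Acat2), each higher at 48 h. Acat2 (chr17:12942890-12960747, GRCm38), the thiolase that joins acetyl units at the entry of the pathway, had 35.7 and 32.9 CPM in dKO at 48 h against 18.9 and 17.6 CPM in dKO at 24 h, and 31.9 and 26.3 CPM in WT at 48 h against 17.4 and 16.4 CPM in WT at 24 h. All 4 libraries at 48 h lay above all 4 at 24 h. Its log2 fold change was 0.91 in dKO (SE 0.166, adjusted p = 0.0198) and 0.77 in WT (SE 0.167, adjusted p = 0.0148). Mvd (chr8:122433601-122443422), the decarboxylase that yields isopentenyl diphosphate, had 19.0 and 19.7 CPM in dKO at 48 h against 9.39 and 9.46 CPM in dKO at 24 h, and 21.1 and 14.0 CPM in WT at 48 h against 11.8 and 8.5 CPM in WT at 24 h. It was called in dKO (log2 fold change 1.04, SE 0.244, adjusted p = 0.0496), close to the threshold, and not in WT (0.76, adjusted p = 0.0756). Fdps (chr3:89093588-89101959), which makes farnesyl diphosphate, had 152 and 144 CPM in dKO at 48 h against 91.6 and 94.95 CPM in dKO at 24 h, and 107 and 93.5 CPM in WT at 48 h against 102 and 99.8 CPM in WT at 24 h. The dKO libraries were apart by time, while the WT libraries overlapped. Its log2 fold change was 0.66 in dKO (SE 0.14, adjusted p = 0.0335) and -0.01 in WT (SE 0.139), and the WT value changed sign with RLE scaling (0.002) or without WT 48 h replicate 2 (0.078).

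The other 5 members of this stretch were not called with time. Hmgcs1, the synthase that makes HMG-CoA, had 150.1 and 161 CPM in dKO at 48 h against 101.4 and 105 CPM in dKO at 24 h, and 123 and 154 CPM in WT at 48 h against 102 and 102 CPM in WT at 24 h. Its log2 differences were 0.59 in dKO (adjusted p = 0.0677) and 0.45 in WT (adjusted p = 0.0939), with no overlap of the libraries in either genotype. Idi1, the isomerase that makes dimethylallyl diphosphate, had 162 and 149.5 CPM in dKO at 48 h against 118 and 104 CPM in dKO at 24 h, and 151 and 125 CPM in WT at 48 h against 114 and 116 CPM in WT at 24 h. Fdft1, the squalene synthase, had 36.3 and 39.3 CPM in dKO at 48 h against 30.7 and 25.2 CPM in dKO at 24 h, and 37.0 and 30.5 CPM in WT at 48 h against 30.3 and 34.0 CPM in WT at 24 h. The WT libraries of Fdft1 overlapped. Mvk and Pmvk are the kinases that phosphorylate mevalonate in turn. Mvk had 12.04 and 12.6 CPM in dKO at 48 h against 13.3 and 10.9 CPM in dKO at 24 h, and 10.6 and 7.72 CPM in WT at 48 h against 10.9 and 8.64 CPM in WT at 24 h, so its libraries overlapped by time in both genotypes. Pmvk had 42.5 and 41.2 CPM in dKO at 48 h against 37.8 and 25.8 CPM in dKO at 24 h, and 37.2 and 25.2 CPM in WT at 48 h against 32.8 and 32.1 CPM in WT at 24 h, apart in dKO and overlapping in WT.

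Of the 10 enzymes from squalene to cholesterol, 3 were called in dKO (Sqle, Lss and Msmo1) and 1 in WT (Lss), all higher at 48 h. Sqle (chr15:59315077-59331192), the epoxidase that acts on squalene, had 55.4 and 56.2 CPM in dKO at 48 h against 35.1 and 33.6 CPM in dKO at 24 h, and 47.2 and 51.7 CPM in WT at 48 h against 32.1 and 37.8 CPM in WT at 24 h. Its log2 fold change was 0.70 in dKO (SE 0.146, adjusted p = 0.033), and its difference in WT was 0.50 (SE 0.145, adjusted p = 0.0521). Lss (chr10:76531588-76557138), the cyclase that makes lanosterol, had 24.5 and 21.3 CPM in dKO at 48 h against 12.01 and 10.8 CPM in dKO at 24 h, and 21.5 and 20.7 CPM in WT at 48 h against 11.5 and 12.9 CPM in WT at 24 h. It was 2.0-fold higher at 48 h in dKO and 1.73-fold higher in WT (log2 fold changes 1.00 and 0.79, adjusted p = 0.0163 and 0.016). All 4 libraries at 48 h lay above all 4 at 24 h. Msmo1 (chr8:64718139-64733792), which oxidises methyl groups of sterols, had 60.8 and 62.3 CPM in dKO at 48 h against 29.1 and 27.8 CPM in dKO at 24 h, and 60.4 and 40.0 CPM in WT at 48 h against a mean of 31.8 ± 2.51 CPM in WT at 24 h (SD, n = 2). Its log2 fold change was 1.11 in dKO (SE 0.197, adjusted p = 0.0172), and in WT it was 0.64 (adjusted p = 0.0641), with the 2 WT 48 h libraries far apart.

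The other 7 enzymes of this stretch were not called with time. Tm7sf2, a sterol reductase, had 38 and 42 counts (5.65 and 5.45 CPM) in dKO at 48 h against 20 and 14 counts (2.18 and 2.6 CPM) in dKO at 24 h, and 4.6 and 2.63 CPM in WT at 48 h against 2.94 and 3.81 CPM in WT at 24 h. Its log2 difference in dKO was 1.23 with an SE of 0.346 (adjusted p = 0.0882), and counts this low limit its precision. Ebp, a sterol isomerase on the X chromosome (chrX:8185329-8193512), had 79.95 and 79.1 CPM in dKO at 48 h against 61.5 and 54.7 CPM in dKO at 24 h, and 59.7 and 50.4 CPM in WT at 48 h against 57.6 and 64.9 CPM in WT at 24 h. Cyp51, the lanosterol demethylase, had 111 and 116 CPM in dKO at 48 h against 95.4 and 91.1 CPM in dKO at 24 h, and 111 and 119.8 CPM in WT at 48 h against 87.2 and 105 CPM in WT at 24 h. Its log2 difference in dKO was 0.28 (adjusted p = 0.279). For both Ebp and Cyp51 the dKO libraries were apart by time, while the WT libraries overlapped for Ebp. Hsd17b7, a keto-reductase, was the one sterol member whose dKO libraries were lower at 48 h without overlap, at 20.5 and 22.2 CPM against 23.7 and 22.3 CPM at 24 h, while in WT it had 21.7 and 24.5 CPM at 48 h against 21.9 and 18.5 CPM at 24 h. Dhcr7, the reductase of the last step, had 8.62 and 7.39 CPM in dKO at 48 h against 5.13 and 7.42 CPM in dKO at 24 h, and 9.38 and 6.83 CPM in WT at 48 h against 7.57 and 8.06 CPM in WT at 24 h. Its libraries overlapped by time in both genotypes. Nsdhl, a sterol dehydrogenase that acts with decarboxylation, had 16.8 and 18.0 CPM in dKO at 48 h against 13.4 and 10.8 CPM in dKO at 24 h, and 15.3 and 14.3 CPM in WT at 48 h against 11.9 and 13.6 CPM in WT at 24 h. Sc5d, a sterol desaturase, had 64.1 and 65.2 CPM in dKO at 48 h against 50.9 and 54.5 CPM in dKO at 24 h, and 66.7 and 59.5 CPM in WT at 48 h against 53.8 and 60.5 CPM in WT at 24 h. Nsdhl was apart by time in both genotypes, and Sc5d in dKO.

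Of the 3 regulators and carriers, Insig1 and Stard4 were called in dKO, and both passed only the unadjusted threshold in WT. Insig1 (chr5:28071363-28078662), the SREBP retention protein that is itself an SREBP target, had 71.8 and 62.9 CPM in dKO at 48 h against 37.9 and 32.1 CPM in dKO at 24 h, and 56.1 and 52.8 CPM in WT at 48 h against 31.7 and 41.5 CPM in WT at 24 h. It was 1.92-fold higher at 48 h in dKO (log2 fold change 0.94, SE 0.172, adjusted p = 0.0198), and the WT difference was 0.57 on the log2 scale (adjusted p = 0.0608). Stard4, which carries cholesterol between membranes, had 133 and 126 CPM in dKO at 48 h against 72.4 and 74.2 CPM in dKO at 24 h, and 121 and 107 CPM in WT at 48 h against 72.1 and 92.3 CPM in WT at 24 h. Its log2 fold change in dKO was 0.82 (SE 0.16, adjusted p = 0.0252). Srebf2, which encodes SREBP2 itself, showed no such separation, with 50.2 and 53.2 CPM in dKO at 48 h against 52.2 and 55.1 CPM in dKO at 24 h, and 52.2 and 69.6 CPM in WT at 48 h against 51.9 and 62.1 CPM in WT at 24 h.

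The sterol calls depended on every dKO library. Each of the 8 calls in dKO was lost without any 1 of the 4 dKO libraries, which leaves 1 library in a group. Calls over all tested genes also became fewer in those fits. The median of the arm in dKO was then 0.55 to 0.64, and 0.52 without either WT 48 h library, the group whose replicates lay farthest apart. Over 15 alternative settings the highest adjusted p of these 8 genes lay between 0.182 (Lss) and 0.31 (Mvd), and the log2 fold change remained positive in all of them. The 2 calls in WT were lost without either WT 24 h library and with library size scaling. The WT median of the arm was 0.30 without WT 48 h replicate 1 and 0.26 without replicate 2. Beside the WT result, Cd3e fell (log2 fold change -0.63, adjusted p = 0.0191) and Cd14 rose (1.56, adjusted p = 0.00287) between the same groups, with 72 and 190 counts of Cd14 in WT at 48 h against 29 and 23 at 24 h. The summed myeloid markers, with 5 in the table, were at 14.5 and 11.2 CPM in WT at 48 h against 5.61 and 4.83 CPM in WT at 24 h, with Lyz2 at 0. Cd68, another of the 5, went the other way, with 6 and 8 counts in WT at 48 h against 11 and 9 at 24 h (log2 difference -1.25, adjusted p = 0.18). Their part in the result was not tested.

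**Figure D2:**
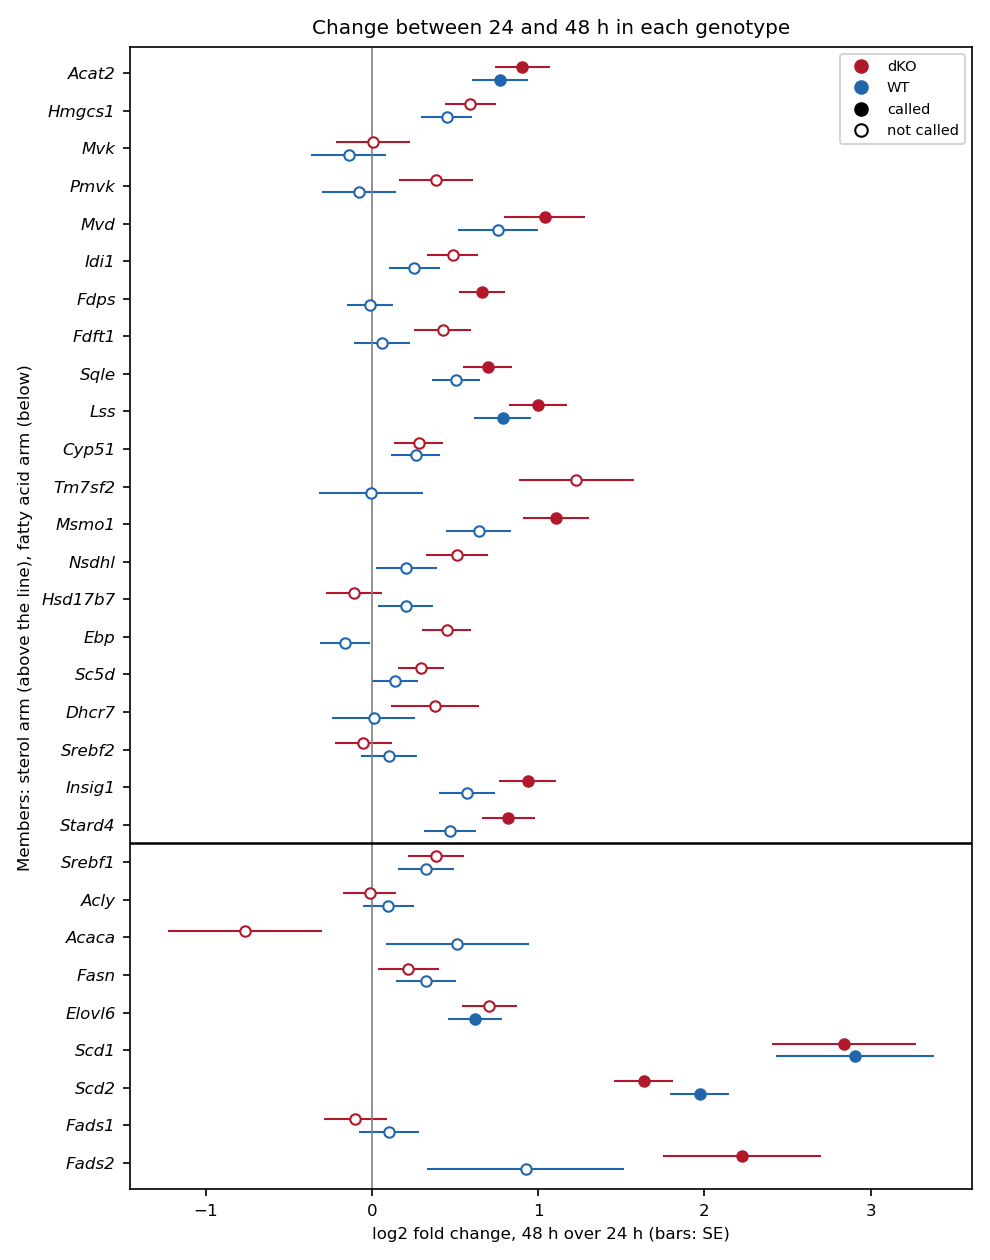
Log2 fold change of each gene, 48 h over 24 h, with its SE from edgeR (bars), in dKO (red, upper mark) and WT (blue, lower mark). Filled marks are called at an adjusted p below 0.05, 11 in dKO and 5 in WT, and the largest changes are those of Scd1, Scd2 and, in dKO, Fads2.

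The fatty acid arm summed to 361 and 374 CPM in dKO at 48 h against 239 and 248 CPM in dKO at 24 h, and to 367 and 483 CPM in WT at 48 h against 233 and 273 CPM in WT at 24 h. In dKO 3 of the 9 members rose (Scd1, Scd2 and Fads2) and 0 fell, and in WT 3 rose (Scd1, Scd2 and Elovl6) and 0 fell. The background shares of called genes are those given for the sterol arm. The median log2 difference was 0.39 in dKO and 0.51 in WT, and 0.22 and 0.17 with library size scaling. The WT median is the value of Acaca, which rests on WT 48 h replicate 2, and without that library the median was 0.215. The 48 h libraries lay above the 24 h libraries without overlap for 6 of 9 members in dKO and 5 of 9 in WT, and below for 1 and 0, where 32.9% and 22.7% of all tested genes were higher and 33.5% and 24.3% lower without overlap. The change was larger in dKO than in WT for 3 of the 9, again without a share over all tested genes.

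Both stearoyl-CoA desaturases among the members, Scd1 and Scd2, rose in both genotypes. These enzymes place a double bond in saturated fatty acids. Of the other Scd genes, Scd3 was not called with time, on 4 to 35 counts per library. Its log2 differences were -0.07 in dKO and 0.09 in WT, and Scd4 was too low to be tested. Scd2 (chr19:44293674-44306864) had 135 and 144 CPM in dKO at 48 h against 46.5 and 43.0 CPM in dKO at 24 h, and 130 and 178 CPM in WT at 48 h against 37.7 and 41.2 CPM in WT at 24 h. It was 3.1-fold higher at 48 h in dKO (log2 fold change 1.63, SE 0.176, adjusted p = 0.00188) and 3.92-fold higher in WT (1.97, SE 0.178, adjusted p = 0.000743). It was the one member called under all 15 alternatives in both genotypes. Scd1 (chr19:44394455-44407879) had 30 and 50 counts (4.46 and 6.49 CPM) in dKO at 48 h against 7 and 4 counts (0.764 and 0.742 CPM) in dKO at 24 h. In WT it had 27 and 64 counts (4.6 and 3.36 CPM) at 48 h against 5 and 2 counts (0.701 and 0.293 CPM) at 24 h. All 4 libraries at 48 h lay above all 4 at 24 h, at log2 fold changes of 2.84 in dKO (SE 0.43, adjusted p = 0.00841) and 2.90 in WT (SE 0.475, adjusted p = 0.0033). The Scd1 call in dKO was lost without either dKO 24 h library or dKO 48 h replicate 2 (adjusted p up to 0.141), and that in WT without WT 24 h replicate 2 or with the WT groups alone (up to 0.0657). Scd1 passed the filter on low counts only through the 48 h libraries, where it was high, and its calls were kept with no filter. The Scd genes are close copies, and reads that match more than one could have been split between them.

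Elovl6 (chr3:129532355-129638495), which lengthens palmitate, had 33.7 and 34.9 CPM in dKO at 48 h against 22.7 and 19.1 CPM in dKO at 24 h, and 38.9 and 44.8 CPM in WT at 48 h against 25.4 and 29.3 CPM in WT at 24 h. It was called in WT (log2 fold change 0.62, SE 0.162, adjusted p = 0.0366) and missed the threshold in dKO at a similar size (0.71, SE 0.167, adjusted p = 0.0505). The WT call was lost in 10 of 15 alternatives, among them DESeq2, library size scaling and each of the 4 dKO and the 2 WT 24 h libraries left out in turn (adjusted p up to 0.358). Fads2 (chr19:10062765-10101746), the first desaturase of polyunsaturated fatty acids, had 33 and 45 counts (4.9 and 5.84 CPM) in dKO at 48 h against 14 and 3 counts (1.53 and 0.556 CPM) in dKO at 24 h. In WT it had 5 and 31 counts (0.853 and 1.63 CPM) at 48 h against 3 and 7 counts (0.421 and 1.02 CPM) at 24 h, and these libraries overlapped. Fads2 passed the filter on low counts only through dKO at 48 h, the group where it was highest. Its log2 fold change was 2.23 in dKO (SE 0.475, adjusted p = 0.0356), lost without any 1 of the 4 dKO libraries (adjusted p up to 0.281), and 0.92 in WT (SE 0.59, adjusted p = 0.38).

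The enzymes that make palmitate were not called with time in either genotype. Acly, which splits citrate into acetyl-CoA, had 44.1 and 52.0 CPM in dKO at 48 h against 46.9 and 50.3 CPM in dKO at 24 h, and 51.5 and 59.2 CPM in WT at 48 h against 47.8 and 55.8 CPM in WT at 24 h. Fasn, the fatty acid synthase, had 94.5 and 86.9 CPM in dKO at 48 h against 73.1 and 82.7 CPM in dKO at 24 h, and 97.2 and 113 CPM in WT at 48 h against 70.4 and 97.9 CPM in WT at 24 h. Its log2 difference in WT was 0.33, and -0.048 with library size scaling. Acaca (chr11:84129672-84401651), the carboxylase that commits acetyl-CoA to fatty acids, had 14.0 and 12.2 CPM in dKO at 48 h against 21.8 and 22.4 CPM in dKO at 24 h. In WT it had 13.8 and 50.6 CPM at 48 h against 24.3 and 22.6 CPM at 24 h, so that WT 48 h replicate 1 was close to the dKO libraries of that time and replicate 2 was the highest of all 8. The log2 difference of Acaca was -0.76 in dKO (SE 0.463, adjusted p = 0.349), where the libraries did not overlap, and without either WT 48 h library the dKO call passed the threshold. Srebf1, which encodes SREBP1, had 19.9 and 20.8 CPM in dKO at 48 h against 14.7 and 16.5 CPM in dKO at 24 h, and 17.2 and 19.5 CPM in WT at 48 h against 15.6 and 13.9 CPM in WT at 24 h. It was apart by time in both genotypes, at log2 differences of 0.39 in dKO (adjusted p = 0.211) and 0.33 in WT (adjusted p = 0.278; -0.027 with library size scaling). Fads1, the other desaturase of polyunsaturated fatty acids, had 10.4 and 11.0 CPM in dKO at 48 h against 10.4 and 12.8 CPM in dKO at 24 h, and 12.1 and 11.9 CPM in WT at 48 h against 10.9 and 11.4 CPM in WT at 24 h.

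The second question was whether the genes differed between genotypes. At 48 h, 2 of the 21 sterol members (Fdps and Ebp) and 1 of the 9 fatty acid members (Fads2) were higher in dKO and 0 were lower, where 3.19% of all tested genes were higher and 8.04% lower. At an unadjusted p below 0.05 Acaca was the 1 lower member, where 19.1% of all tested genes were lower, and DESeq2 called it. The sterol median was 0.18 on the log2 scale and the fatty acid median -0.16, against -0.03 over all tested genes. With library size scaling they were 0.36 and 0.01, a change of sign for the fatty acid arm, and the median over all genes was 0.15. Without WT 48 h replicate 1 the medians were 0.29 and -0.31, and without replicate 2 they were 0.11 and -0.075. Both dKO libraries lay above both WT libraries for 11 of 21 sterol members and below for 0, and for 2 and 3 of 9 fatty acid members, where 28.3% of all tested genes were higher and 28.6% lower without overlap. Within WT at 48 h, 16 of the 21 sterol members were lower in replicate 2 than in replicate 1, with a median absolute log2 difference of 0.27 between these replicates, against 0.08 between the dKO replicates of that time.

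**Figure D3:**
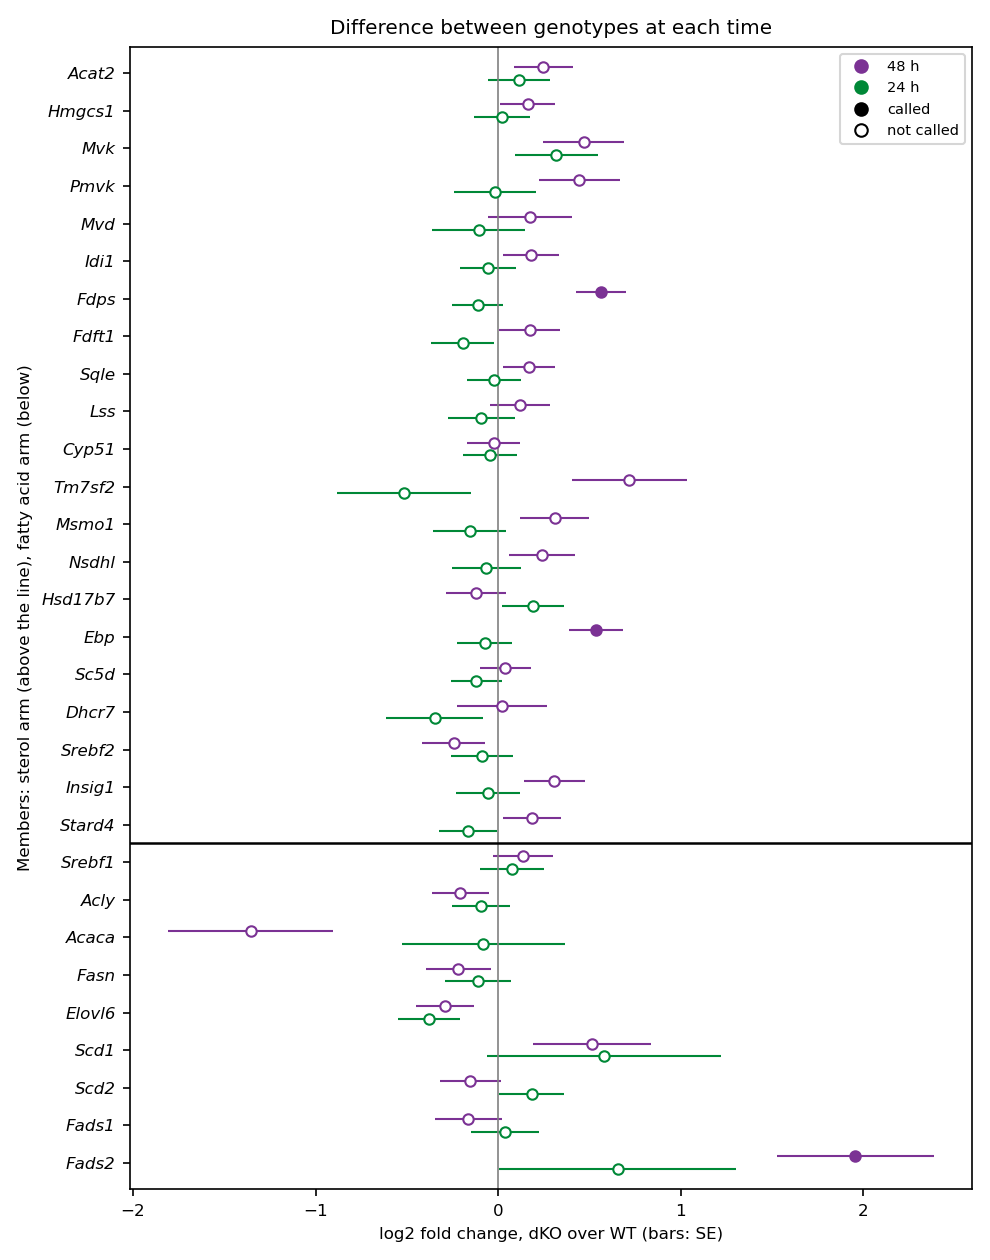
Log2 fold change of each gene, dKO over WT, with its SE from edgeR (bars), at 48 h (purple, upper mark) and 24 h (green, lower mark). Filled marks are called at an adjusted p below 0.05: Fdps, Ebp and Fads2 at 48 h, and 0 genes at 24 h.

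Fdps averaged 148 ± 5.77 CPM in dKO and 100.2 ± 9.51 CPM in WT at 48 h (SD, n = 2 each), a log2 fold change of 0.56 (SE 0.139, adjusted p = 0.0319). Ebp averaged 79.5 ± 0.588 CPM in dKO and 55.1 ± 6.53 CPM in WT at 48 h (SD, n = 2 each), a log2 fold change of 0.54 (SE 0.148, adjusted p = 0.047). Fads2 averaged 5.37 ± 0.659 CPM in dKO and 1.24 ± 0.549 CPM in WT at 48 h (SD, n = 2 each), a 3.88-fold difference (log2 fold change 1.96, SE 0.429, adjusted p = 0.0208). For all 3 genes both dKO libraries lay above both WT libraries. Fads2 entered the test only through the dKO 48 h libraries, where it was high, and its call was kept with no filter. Ebp and Nsdhl are the members on the X chromosome, and since the libraries of the genotypes also differ in Xist, this difference of Ebp and the sex of the cells cannot be told apart. All 3 calls were lost without either dKO 48 h library, and those of Fdps and Ebp also without any 1 of the 4 libraries at 24 h (adjusted p up to 0.202 for Fdps, 0.254 for Ebp and 0.198 for Fads2). Ebp was not called with DESeq2 or without WT 48 h replicate 2 either, and its log2 fold change was 0.42 to 0.72 over the 15 alternatives. Cd14 fell between the same groups (log2 fold change -1.22, adjusted p = 0.0162), with 33 and 35 counts in dKO and 72 and 190 in WT. Cd68, also a myeloid marker, differed in the other direction, with 7 and 13 counts in dKO and 6 and 8 in WT (log2 difference 1.19, adjusted p = 0.15). Their part in these results was not tested.

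Among the members not called at 48 h, Tm7sf2 averaged 5.55 ± 0.141 CPM in dKO and 3.62 ± 1.4 CPM in WT (SD, n = 2 each), a log2 difference of 0.72 (adjusted p = 0.147). Msmo1 averaged 61.5 ± 1.04 CPM in dKO and 50.2 ± 14.4 CPM in WT (SD, n = 2 each), with dKO libraries above both WT libraries by a narrow margin over replicate 1. Acaca averaged 13.1 ± 1.26 CPM in dKO and 32.2 ± 26.0 CPM in WT (SD, n = 2 each). Its log2 difference of -1.36 (adjusted p = 0.0783) was -0.08 without WT 48 h replicate 2, so its size rests on that library. Insig1 averaged 67.3 ± 6.27 CPM in dKO and 54.4 ± 2.33 CPM in WT (SD, n = 2 each) and did not overlap. Srebf2 was at 50.2 and 53.2 CPM in dKO and at 52.2 and 69.6 CPM in WT at 48 h, and these libraries overlapped.

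**Figure D4:**
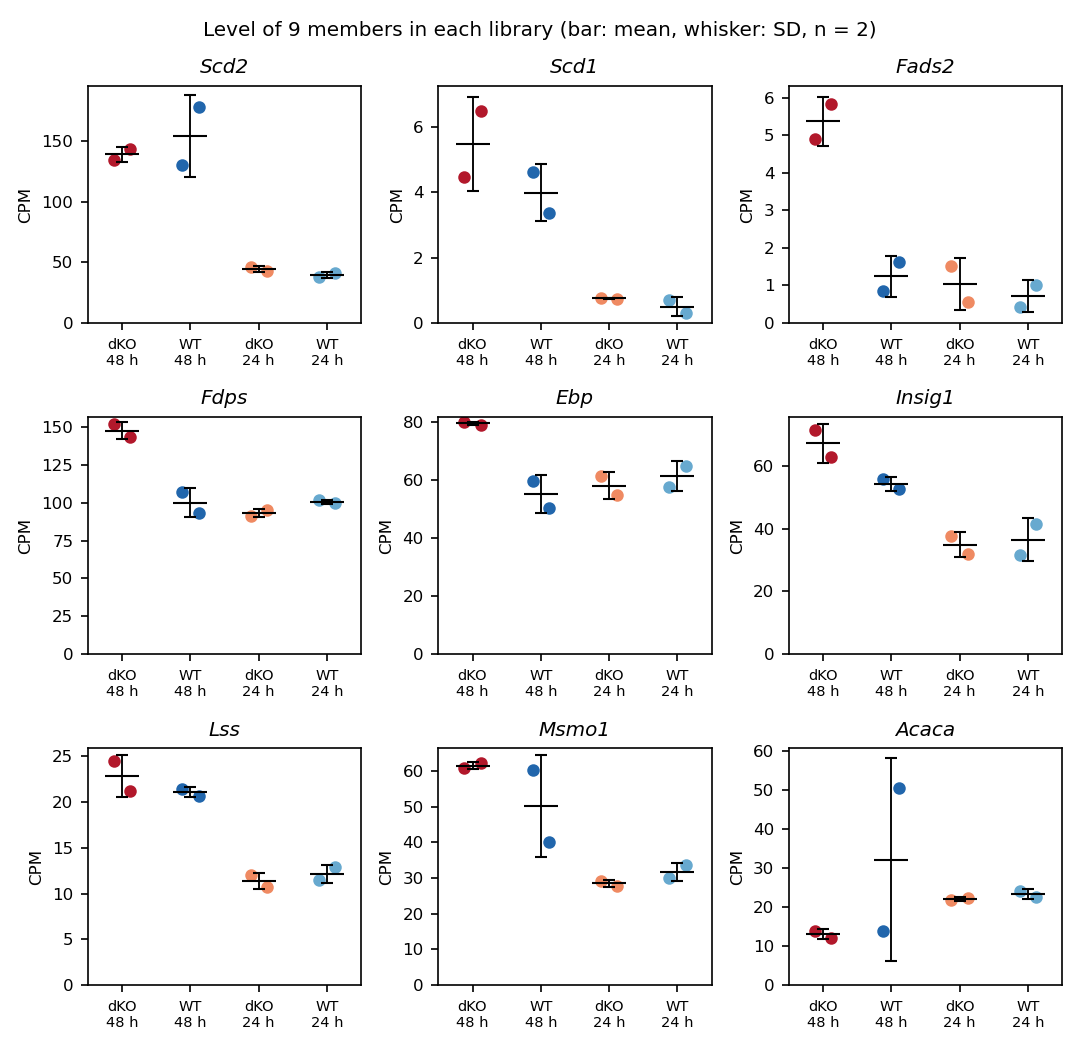
Level in CPM (vertical axes, from 0) of 9 genes in each library (points), with the mean (long bar) and SD (whiskers) of the 2 libraries of each group. Scd2, Scd1, Lss and Insig1 separate by time in both genotypes, Fads2, Fdps and Ebp are highest in dKO at 48 h, and the WT 48 h points of Acaca are 13.8 and 50.6 CPM.

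At 24 h, 0 of the 30 members were called, and 0.432% of all tested genes were called in either direction. At an unadjusted p below 0.05 there was 1 member, Elovl6, lower in dKO, where 3.05% of all tested genes were lower. DESeq2 also called 0 members. Elovl6 averaged 20.9 ± 2.54 CPM in dKO and 27.3 ± 2.77 CPM in WT at 24 h (SD, n = 2 each), a log2 difference of -0.38 (SE 0.169, adjusted p = 0.714). Fdps averaged 93.3 ± 2.39 CPM in dKO and 100.7 ± 1.33 CPM in WT (SD, n = 2 each), and Ebp 58.1 ± 4.76 CPM in dKO and 61.3 ± 5.14 CPM in WT (SD, n = 2 each). Fdps was thus lower in both dKO libraries, while the Ebp libraries overlapped. Over both times 0 of the 30 members were called, where 7.8% of all tested genes were called in either direction. At an unadjusted p below 0.05 Mvk, Fdps and Fads2 were higher and Acaca and Elovl6 lower. At that threshold 12.4% of all tested genes were higher and 15.5% lower. DESeq2 again called 0 of the members. Without WT 48 h replicate 1 the medians over both times were 0.103 for the sterol and -0.099 for the fatty acid arm. Without replicate 2 they were -0.002 and -0.078.

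The third question was whether the time change differed between genotypes, tested as the interaction of genotype and time. It was called for 0 of the 30 members and for 0% of all tested genes, and DESeq2 called 0 as well. At an unadjusted p below 0.05 it was positive for 3.42% and negative for 8.94% of all tested genes. There were 3 members at that threshold, all with the larger change in dKO. These were Fdps (log2 difference of the changes 0.67, SE 0.197), Tm7sf2 (1.23, SE 0.485) and Ebp (0.61, SE 0.21). Their adjusted p values were 0.369, 0.375 and 0.369. The median of the sterol arm was 0.28 and that of the fatty acid arm -0.11, against -0.04 over all genes, and with library size scaling they were 0.46, 0.10 and 0.15. With libraries left out in turn the fatty acid median was -0.23 to 0.025. Fads2 had an interaction of 1.30 with an SE of 0.808, so the 2.23 in dKO and 0.92 in WT were not shown to differ. The sterol median of the interaction was 0.37 without WT 48 h replicate 1 and 0.20 without replicate 2.

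Other genes of the pathways were taken from lists by role. Among genes of sterol and cholesterol uptake or transport, 11 of 13 could be tested, and in dKO 3 were higher and 1 lower at 48 h than at 24 h. Tmem97, an endoplasmic reticulum protein of cholesterol traffic, had 111 and 110.2 CPM in dKO at 48 h against 72.8 and 68.8 CPM in dKO at 24 h (log2 fold change 0.64, adjusted p = 0.0351). Gramd1b, which carries cholesterol inward from the plasma membrane, had 37.9 and 35.8 CPM in dKO at 48 h against 74.8 and 80.7 CPM in dKO at 24 h, and fell by 1.08 on the log2 scale (adjusted p = 0.0384). Nr1h2, the sterol receptor LXR beta, was the 1 called of 8 tested regulators and was lower at 48 h in dKO (-0.76, adjusted p = 0.0437). In WT, Mylip, a ubiquitin ligase that LXR induces, and Sult2b1, a sterol sulfotransferase, were the 2 called of 8 tested genes of efflux and esterification, with log2 fold changes of -1.28 and -1.11 (adjusted p = 0.0364 and 0.0338).

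Of 28 further genes of fatty acid synthesis, elongation and activation, 19 could be tested. Acsl5, an acyl-CoA synthetase, was higher at 48 h in both genotypes, by 0.75 in dKO and 0.58 in WT on the log2 scale (adjusted p = 0.027 and 0.0329). Fads6 was lower at 48 h in dKO (-1.77, adjusted p = 0.0485). In WT, Acsl6, another acyl-CoA synthetase, was higher at 48 h (1.63), while Hacd1, a dehydratase of fatty acid elongation, and Slc25a1, the mitochondrial citrate carrier, were lower (-1.04 and -0.79). Hacd1 was the 1 gene of this list higher in dKO at 48 h (0.87, adjusted p = 0.0165), and Acsl6 the 1 higher at 24 h (2.76, adjusted p = 0.0167). Of 15 tested genes of fatty acid oxidation, Acads was higher at 48 h in dKO (0.94, adjusted p = 0.0224) and Cpt1a was lower in dKO over both times (-0.72, adjusted p = 0.047). Of 11 genes that use mevalonate products, Fnta, a subunit of protein prenyltransferases, was higher in dKO at 48 h (0.67, adjusted p = 0.0324), and Rabggta was lower at 48 h in WT (-0.66, adjusted p = 0.0494).

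Reads of a few members could not be assigned with certainty. For 6 of the 30 an exon overlaps an exon of another gene in the table: Cyp51 with Akap9, Elovl6 with Gm35986, Fdft1 with Ctsb, Lss with 4930483K19Rik, Srebf1 with Rai1 and Tm7sf2 with Vps51. The sources used here do not say how strand was treated, so counts of these pairs can hold reads of either gene. Acat2 has a close copy, Acat3, for which the same holds.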

How the data were processed

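The deposited table holds whole-number counts per gene symbol for 8 libraries, made by the authors. Per the submitters' processing notes, cutadapt 1.18 and Bowtie2 2.2.5 were used with mm10; the sources used here do not name the counting program, annotation, strand rule or any molecular identifiers. An unnamed last entry equal to the column total in all 8 libraries was left out. All libraries entered 1 fit in edgeR 4.0.16 (R 4.3.3) with a mean per group, TMM scaling, filterByExpr with a minimum count of 10 (12742 genes) and the two-sided quasi-likelihood F test. There were 4 residual and 5.76 prior degrees of freedom. Calls have a Benjamini-Hochberg adjusted p below 0.05 over all tested genes, with no minimum fold, and each SE was derived from the F statistic of that fold change. The script was tested on simulated counts. Total counts per library limit the precision of genes with few counts. The labels do not say whether replicates came from separate animals, so p-values reflect only the scatter among the replicate libraries, which may be technical. Replicates differed by more than sampling noise in every group (chi-square per degree of freedom 2.63 to 67.9), so none was counted as a repeat. Positions come from GENCODE M21 (GRCm38) and promoters from RefSeq (GRCm38.p6). Alternatives were DESeq2 1.42.0, RLE and library size scaling, other filters, the compared groups alone, a replicate block and each library left out. All members are named, and genes of the other lists when called (at most the 4 with the smallest p per list and comparison). The members and lists were chosen with earlier results of these data known. Certain single genes of the lists are counted but not reported by name.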

Additional observations from a re-analysis of the deposited data

Results flagged for a closer look

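For 3 sterol genes the genotype difference had opposite signs at the 2 times, with both dKO libraries above both WT libraries at 48 h and below both at 24 h. The share of all tested genes with this pattern was not counted, so the 3 cannot be set against it. With each time taken alone, 11 of the 21 sterol members were higher in dKO at 48 h without overlap, and 4 were lower at 24 h. Among all tested genes 28.3% were higher in dKO at 48 h without overlap. Fdps had a log2 difference, dKO over WT, of 0.56 at 48 h and -0.11 at 24 h. Tm7sf2 had 0.72 at 48 h and -0.51 at 24 h, on 14 to 50 counts per library. Msmo1 had 0.31 at 48 h and -0.16 at 24 h. The test of the interaction did not call any of them in edgeR (adjusted p = 0.369 for Fdps, 0.375 for Tm7sf2 and 0.485 for Msmo1).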

How the results depend on the processing

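With 2 libraries a group, counts of called members moved with the libraries that set the spread. Against 11 in dKO over time, 24 were called with the 2 groups alone and 1 to 20 when libraries were left out in turn. Against 5 in WT over time, library size scaling gave 3 (2 fatty acid members higher, 1 sterol member lower), DESeq2 3, no filter 8, the 2 groups alone 1 and libraries left out 1 to 12. Against 3 for dKO over WT at 48 h, a mean of at least 50 counts gave 1 and the 2 groups alone 0. The shares of all tested genes called at 48 h were 11.2%, 10.8% and 3.66%. In dKO over time the share was 3.63%, and 37.3% with the 2 groups alone. In WT over time it was 11.4%, and 26.4% with library size scaling. It was 9.31% there with DESeq2, 8.62% with no filter and 0.251% with the 2 groups alone. Calls over all tested genes also moved with libraries left out in these 3 comparisons. Member calls at 48 h moved too, and without WT 48 h replicate 1 some members were called lower in dKO. At 24 h the count was 0 in every setting run. Over both times it was 0, and 1 with library size scaling, 2 with no filter and 0 to 9 with libraries left out. The interaction was called for 0, and for 1 with no filter and 0 to 7 with libraries left out. A replicate block left 11, 4 and 2 calls over time in dKO, over time in WT and at 48 h, and 0 elsewhere; same-numbered libraries correlated at -0.09 to 0.19 in their deviations, so the numbers were not shown to pair them. With library size scaling 8 sterol and 4 fatty acid members, all uncalled, changed sign in WT over time. Of the uncalled values given with a fold change, signs reversed in WT over time for Fdps (0.002 with RLE scaling, and -0.093 to 0.078 with libraries left out), Idi1 (-0.11), Fasn (-0.048) and Srebf1 (-0.027), the last 3 with library size scaling. The Acaca interaction was -1.87 to 0.025 with libraries left out. The causes were not tested. Of 19 called results of 13 members, 2 (Scd2 in both genotypes) kept their call in every setting, and 0 changed sign. Depth limits Scd1, Fads2 and Tm7sf2, which had 2 to 64 counts per library.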
